A study of Homo sapiens with 43 samples.

Results

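Histone H3 acetylated at lysine 27 (H3K27ac) was compared between LK2_DNp63 and LK2_GFP, both derived from LK2, a lung squamous cell carcinoma line. Chromatin immunoprecipitation followed by sequencing (ChIP-seq) gave 1 H3K27ac peak list for LK2_DNp63, 1 for LK2_GFP and 2 for unmodified LK2. These 4 samples are among the 43 samples of the series, of which 27 have a peak list. From its label LK2_DNp63 carries ΔNp63, the short form of p63, and LK2_GFP carries GFP. The labels do not say how either was made, whether it is 1 clone, or how much of each protein is present. Peaks of p63 in LK2_DNp63, of Sox2 in LK2_DNp63, LK2_GFP and LK2, and of Brn2 in LK2 were set against the H3K27ac lists. A p63 list of LK2_GFP or LK2 was not analysed here, so p63 binding is known for LK2_DNp63 only.

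Gained peaks were LK2_DNp63 peaks that overlapped no peak of the 3 other lists, and 6629 of 30149 peaks were gained. Lost peaks were LK2_GFP peaks that overlapped both LK2 lists and no LK2_DNp63 peak, and there were 1853 among the 33454 LK2_GFP peaks. Kept peaks, 12407 in number, were LK2_DNp63 peaks that overlapped all 3 other lists. The remaining 11113 LK2_DNp63 peaks overlapped some of them. An overlap of 1 bp counted. There was 1 library per arm, so LK2_DNp63 was not tested against LK2_GFP, and the 2 LK2 lists served as the spread between libraries of the same parental line. Intervals given below are 95% Wilson intervals, which cover counting error only.

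H3K27ac lies on nucleosomes of active promoters and enhancers, and its peaks widen where neighbouring elements are active together. ΔNp63 is the main p63 form of basal and squamous epithelia. There it binds enhancers of keratin, adhesion and barrier genes. Sox2 maintains progenitor states in many tissues, and its gene is often amplified in squamous tumours. Brn2, the product of POU3F2, belongs to the POU family of neural development and binds with Sox2 at many neural enhancers.

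Within the list of squamous genes, the largest difference of LK2_DNp63 to the nearest of the 3 other lists lay at MIR205HG, the host gene of miR-205, a microRNA of basal epithelia. Its 2 mature strands are shown with the seed, bases 2 to 8, in capitals, from RefSeq (GRCh38.p14, chromosome 1, plus strand).
hsa-miR-205-5p: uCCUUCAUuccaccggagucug
hsa-miR-205-3p: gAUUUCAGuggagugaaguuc

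The promoters shown are examples of start sites that met the data. The start of MIR205HG lay within 0.5 kb of an H3K27ac peak in LK2_DNp63 and in no other LK2 list. The starts of GRHL3 and LAMB3 lay within 0.5 kb of a p63 peak, and of H3K27ac peaks in LK2_DNp63 and LK2_GFP but not in LK2. Each sequence runs from 250 bases before to 50 bases after the RefSeq start (GRCh38.p14, MIR205HG and GRHL3 on the plus strand and LAMB3 on the minus strand of chromosome 1). Capitals mark the fixed letters of a pair of CNNG half-sites with 6 bases between them. This is the core spacing of p53-family sites, and the pattern reads the same on both strands. Relative to the start, the nearest p63 peak lay at -0.9 to -0.38 kb for LAMB3 and -0.01 to 0.64 kb for GRHL3. For MIR205HG it lay at 2.02 to 2.74 kb. By these approximate distances, none of the marked pairs lay under a p63 peak. Matches may overlap.
MIR205HG: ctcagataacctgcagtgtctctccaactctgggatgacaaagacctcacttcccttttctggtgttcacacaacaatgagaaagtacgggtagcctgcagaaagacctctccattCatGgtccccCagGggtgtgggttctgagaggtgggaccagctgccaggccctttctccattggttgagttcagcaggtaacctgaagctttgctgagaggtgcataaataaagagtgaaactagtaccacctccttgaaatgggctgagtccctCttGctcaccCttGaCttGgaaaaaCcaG
GRHL3: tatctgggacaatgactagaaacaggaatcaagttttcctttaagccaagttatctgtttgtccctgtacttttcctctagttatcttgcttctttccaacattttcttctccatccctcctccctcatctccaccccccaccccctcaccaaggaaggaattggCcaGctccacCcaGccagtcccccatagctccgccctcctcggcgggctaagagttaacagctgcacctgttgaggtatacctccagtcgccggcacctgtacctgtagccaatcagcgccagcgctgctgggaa
LAMB3: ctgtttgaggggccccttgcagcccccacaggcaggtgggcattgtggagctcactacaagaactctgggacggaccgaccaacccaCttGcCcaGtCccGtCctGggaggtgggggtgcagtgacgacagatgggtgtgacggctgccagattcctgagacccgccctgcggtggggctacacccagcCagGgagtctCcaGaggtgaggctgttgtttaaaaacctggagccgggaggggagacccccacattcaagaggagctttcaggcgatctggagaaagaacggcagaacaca

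The pattern was found 3 times in MIR205HG, 1 time in GRHL3 and 3 times in LAMB3. The promoters of DSG3 and COL17A1, not shown, had 0 matches. Their starts, like that of MIR205HG, lay within 0.5 kb of an H3K27ac peak of LK2_DNp63 alone. Among other listed genes with a p63 peak at the start and an available promoter, matches ran from 1 in TP53I3 to 8 in PERP. The pattern is loose: 25977 of 35116 RefSeq promoters of the same length, 74.0%, hold at least 1 match. The stricter pair of CATG half-sites at the same spacing, found in 131 of those promoters (0.373%), had no match in the 3 sequences shown.

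At MIR205HG, LK2_DNp63 had 10 peaks within 50 kb of the gene, of which 9 were gained. The widest gained one, at chr1:209602242-209605950 (hg19), began next to the start, spanned 3709 bp and held a p63 peak of 719 bp at chr1:209604186-209604904. The adjoining peak, chr1:209605986-209609922, spanned 3937 bp, against a single LK2_GFP peak of 328 bp there, 1 peak of 386 bp in LK2 replicate 1 and peaks of 722 and 606 bp in LK2 replicate 2. A further p63 peak lay in the gained peak chr1:209584348-209586017, about 17 kb upstream, and another spanned the gained peaks chr1:209588577-209589531 and chr1:209589654-209590157. To compare loci, the base pairs covered by H3K27ac peaks in the gene and 50 kb on each side were scaled to an equal total per list (scaled covered length). MIR205HG had 12.16 kb in LK2_DNp63, against 0.3 kb in LK2_GFP and 0.41 and 1.67 kb in the LK2 replicates. The LK2_DNp63 value lay far above the 3 other values, which lay close together.

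ZNF750, a zinc-finger factor of epidermal differentiation that p63 regulates, had 15.28 kb of scaled covered length in LK2_DNp63, against 6.05 kb in LK2_GFP and 1.44 and 0.0 kb in LK2. Its widest gained peak, chr17:80743759-80748290 (4532 bp), lay about 50 kb downstream of the start, inside TBCD, and held 2 p63 peaks. The start itself lay in the gained peak chr17:80798106-80798697. Another p63 peak, chr17:80793810-80794617, spanned 2 gained peaks about 4 kb into the gene, and the fourth lay in the gained peak chr17:80832766-80834642, about 35 kb upstream. LK2_GFP already had a peak of 1318 bp just inside the gene, where Sox2 peaks lay in LK2_DNp63, LK2_GFP and LK2. Acetylation at ZNF750 was thus not restricted to LK2_DNp63, and LK2_GFP stood between LK2_DNp63 and LK2.

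**Figure D1:**
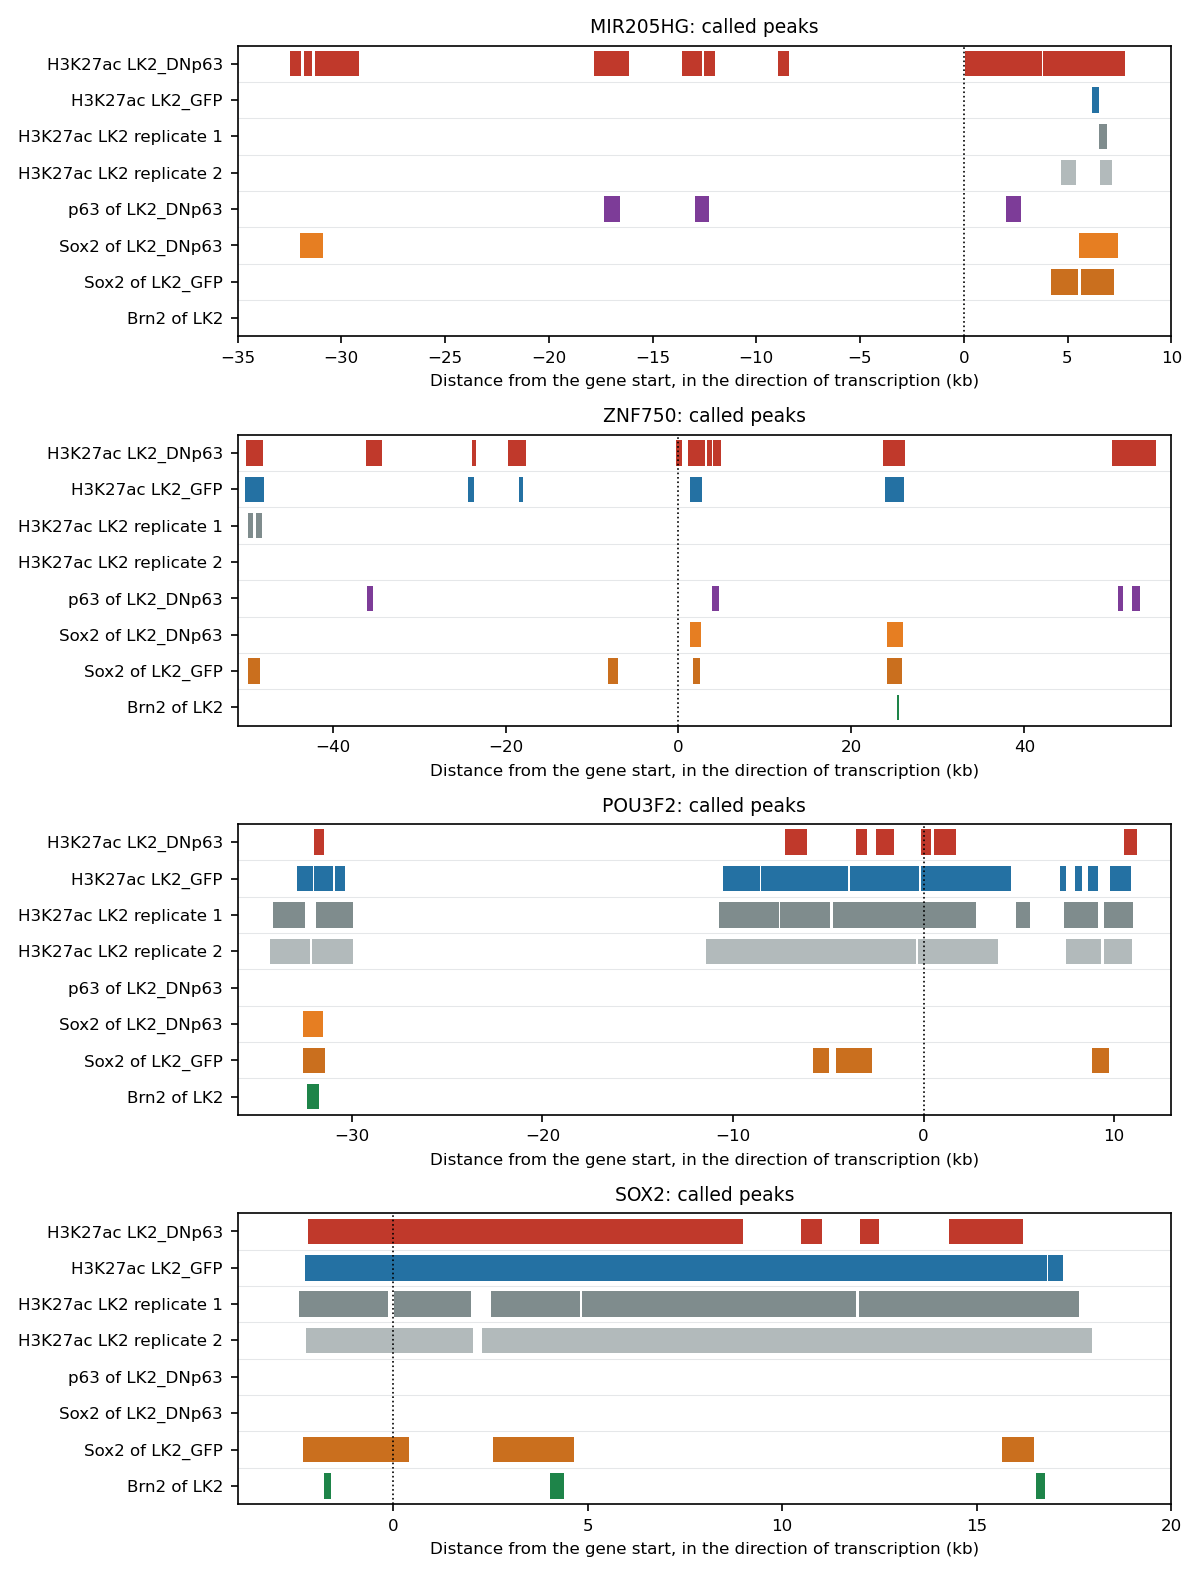
Called peaks (bars) around MIR205HG, ZNF750, POU3F2 and SOX2, by distance from the gene start in kb, in the 4 H3K27ac lists and the p63, Sox2 and Brn2 lists. LK2_DNp63 has 2 adjoining peaks over MIR205HG where the 3 other lists have peaks of 328 to 722 bp, and at POU3F2 its peaks are short where the 3 other lists are nearly continuous.

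TP63 itself had 5.46 kb of scaled covered length in LK2_DNp63, against 1.55 kb in LK2_GFP and 0.42 and 0.0 kb in LK2. Of its 8 LK2_DNp63 peaks, 7 were gained. The widest, chr3:189558808-189561458, spanned 2651 bp, and a p63 peak at chr3:189551449-189552478 overlapped the gained peak chr3:189551881-189552537. Both lay deep within the gene. Other gained peaks were short, such as chr3:189526009-189526422 (414 bp), chr3:189581944-189582299 (356 bp) and chr3:189611862-189612381 (520 bp). Reads of an introduced p63 copy and reads of the chromosomal exons cannot be told apart in a peak list, so the TP63 value does not show acetylation of the resident gene alone.

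The list of squamous genes had 58 genes with a usable position. A gene was called higher when LK2_DNp63 exceeded all 3 other lists by at least 2 kb of scaled covered length, and lower when it was under all 3 by that amount. Of the 58 genes, 17 were higher and 1 was lower, 29.3% and 1.72%. Over all 15900 bins of 100 kb that held a peak, 2.65% were higher and 1.86% lower. The gene windows are denser than such bins, and in the 5112 bins with a mean of at least 2 kb, 4.81% were higher and 5.69% lower. Some windows overlap. After joining them, 15 of 47 squamous loci were higher, 31.9%. Joined squamous windows held 285.7 kb in LK2_DNp63, against 209.5 kb in LK2_GFP and 202.5 and 189.4 kb in LK2. With no minimum difference, LK2_DNp63 ranked first of the 4 lists at 31 of 58 squamous genes (53.4%) and last at 9 (15.5%). Of all bins it ranked first in 28.7% and last in 18.4%, and ranks over the denser bins alone were not computed.

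Among 13 transcription factors, 4 were higher, TP63, ZNF750 and OVOL1 among them, and 9 were neither higher nor lower. OVOL1, a zinc-finger factor of epidermal differentiation, had 6.21 kb in LK2_DNp63, against 1.71 kb in LK2_GFP and 2.91 and 1.61 kb in LK2. Grainyhead factors did not pass in either direction. GRHL3 had 2.73 kb in LK2_DNp63, against 2.55 kb in LK2_GFP and 3.87 and 2.54 kb in LK2, despite its p63 peak at the start. KLF5, a basal epithelial zinc-finger factor, had 13.93 kb in LK2_DNp63, against 12.51 kb in LK2_GFP and 9.41 and 10.22 kb in LK2.

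Among keratins, the filament proteins of epithelia, KRT5, KRT6A and KRT6C were higher. They share 1 locus on chromosome 12 and the same 5 gained peaks, so they count as 1 observation. Their calls were not made with 10 kb of flank, at start sites with 2.5 kb on each side or with equal numbers of top peaks per list. Each had 3.15 kb of scaled covered length in LK2_DNp63 and no peak in the 3 other lists. The nearest to KRT5 was chr12:52915809-52917211, about 1.3 kb upstream of its start, and the peak chr12:52886663-52887075 lay within 0.5 kb of the KRT6A start. No p63 peak lay in the KRT5 window. KRT6A, KRT6B and KRT6C are near-identical copies, so the placement of reads among them is uncertain. KRT14, the partner of KRT5, had 0.36 kb in LK2_DNp63, against 0.0 kb in LK2_GFP and 0.27 and 0.0 kb in LK2.

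Among adhesion genes, NECTIN1, PKP1, ITGB4, FAT2 and DSG3 were higher and PERP was lower. NECTIN1, a cell adhesion receptor of epithelia, had 7.03 kb in LK2_DNp63, against 1.75 kb in LK2_GFP and 1.78 and 1.23 kb in LK2. A p63 peak at chr11:119562563-119563430 spanned 2 of its 4 gained peaks. ITGB4, the hemidesmosomal integrin subunit, had 14.68 kb in LK2_DNp63, against 8.71 kb in LK2_GFP and 10.25 and 11.07 kb in LK2. It was not called with 10 kb of flank or at the start site with 2.5 kb on each side. PKP1, a desmosomal plakophilin, had 8.73 kb in LK2_DNp63, against 3.93 kb in LK2_GFP and 4.11 and 3.39 kb in LK2.

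DSG3 was not called with equal numbers of top peaks per list, with 10 kb of flank or at the start site with 2.5 kb on each side. FAT2, an atypical cadherin, had 3.86 kb in LK2_DNp63, against 0.0 kb in LK2_GFP and 0.5 and 0.0 kb in LK2. All 6 of its LK2_DNp63 peaks were gained, and 2 of its 3 p63 peaks lay over them, at chr5:150951999-150952737 and chr5:150994708-150995627, but FAT2 was not called with equal numbers of top peaks per list or at the start site with 2.5 kb on each side. PERP, a desmosomal protein and p53-family target, went the other way, with 6.19 kb in LK2_DNp63, against 10.49 kb in LK2_GFP and 8.31 and 9.88 kb in LK2. It held no lost peak. Its LK2_DNp63 peak over the start was 6240 bp wide, against 9953 bp in LK2_GFP, and p63 peaks lay inside it. The PERP call was not made when covered lengths were left unscaled, with equal numbers of top peaks per list or at the start site with 2.5 kb on each side.

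Among barrier and signalling genes, MIR205HG, PPL, TRIM29, SFN and JAG2 were higher. PPL encodes periplakin of the cornified envelope and had 8.07 kb in LK2_DNp63, against 2.71 kb in LK2_GFP and 4.17 and 3.38 kb in LK2. It held 9 gained peaks and no p63 peak, and was not called under the same 2 settings as FAT2. TRIM29, a tripartite-motif protein of basal epithelia, had 5.35 kb in LK2_DNp63, against 1.8 kb in LK2_GFP and 0.74 and 0.0 kb in LK2, and 2 gained peaks lay within 0.5 kb of its start. SFN, the epithelial 14-3-3 protein and a p53-family target, had 9.51 kb in LK2_DNp63, against 6.81 kb in LK2_GFP and 5.75 and 1.53 kb in LK2. Neither SFN nor JAG2 was called with 10 kb of flank or at start sites with 2.5 kb on each side. The late barrier genes SPRR1A, SPRR1B and SPRR3 had no peak in any of the 4 lists.

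**Figure D2:**
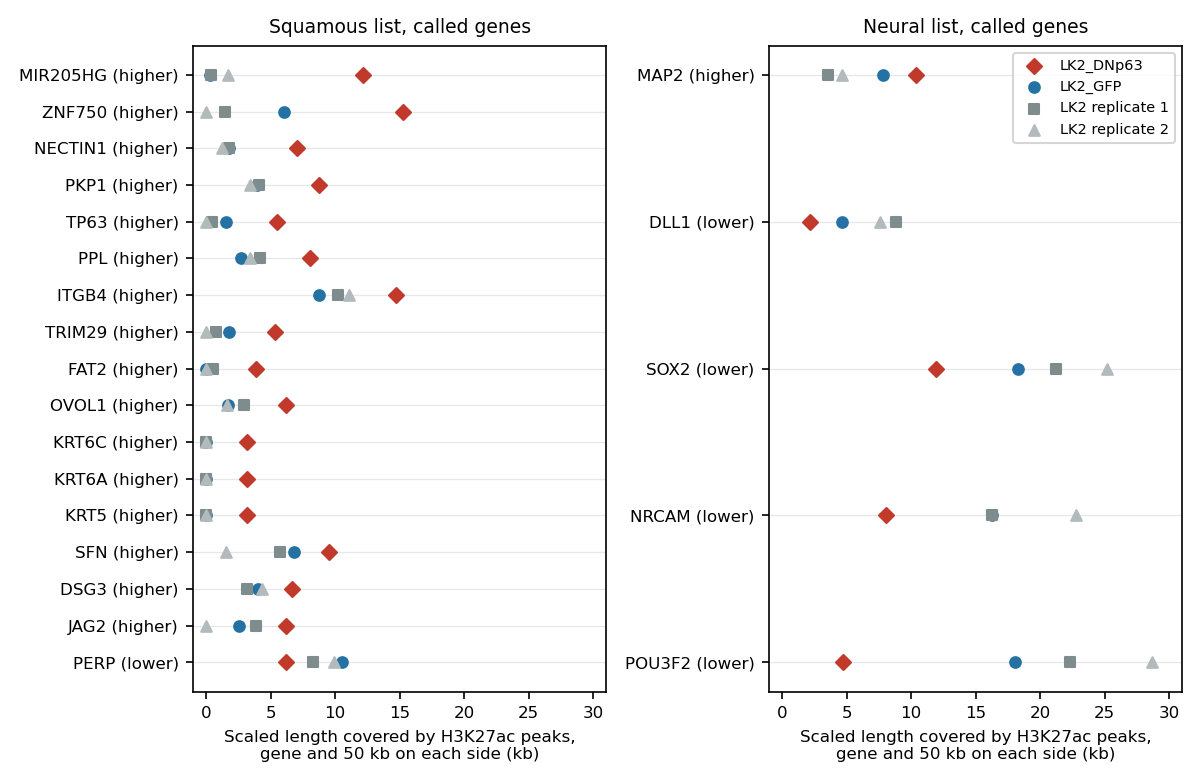
Scaled length covered by H3K27ac peaks (kb) in the gene and 50 kb on each side, for the called genes named from the squamous list (left) and the neural list (right), with 1 marker per list. For every gene shown as higher the LK2_DNp63 diamond lies at least 2 kb to the right of the 3 other markers, and for POU3F2, NRCAM, SOX2, DLL1 and PERP it lies to the left of them.

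At start sites, taken with 0.5 kb on each side, 8 of 58 squamous genes lay in a peak of LK2_DNp63 alone: ZNF750, OVOL1, KRT6A, KRT16, DSG3, COL17A1, TRIM29 and MIR205HG. Among the neural, p53-family, housekeeping and other cell type lists 0 starts did so, and a share over all genes was not computed. KLF5, GRHL3 and LAMB3 lay in a peak of LK2_DNp63 and LK2_GFP alone. No squamous start lay in a peak of all lists but LK2_DNp63, and 22 lay in a peak of all 4. Of the 17 higher squamous genes, 11 had a p63 peak in their window, against 25 of the 41 others, 64.7% against 61.0%. A p63 peak in the window therefore did not separate higher squamous genes from the rest of their list.

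The neural list had 55 genes, of which 4 were lower and 1 was higher, 7.27% and 1.82%. Of all bins that held a peak 1.86% were lower, and of bins with a mean of at least 2 kb 5.69%. The median LK2_DNp63 value was 1.15 kb over neural genes and 1.2 kb over all bins. Of the neural genes, 9 had no peak in any list. A share over neural genes with a mean of at least 2 kb was not computed. The count of lower neural genes is therefore given through its members. The neural windows together held 137.1 kb in LK2_DNp63, against 187.9 kb in LK2_GFP and 218.6 and 218.1 kb in LK2. The median difference of LK2_DNp63 to LK2_GFP over neural genes was 0.0 kb, so the sums rest on few loci. The largest differences to LK2_GFP were at SYT1 (-13.66 kb), POU3F2 (-13.3 kb), NRCAM (-8.26 kb) and SOX2 (-6.33 kb). The largest rise over LK2_GFP, at MAP2, was 2.59 kb. LK2_DNp63 ranked last of the 4 lists at 18 of the 55 genes and first at 7, 32.7% and 12.7%. Of all bins that held a peak, it ranked last in 18.4% and first in 28.7%. Ranks over the denser bins alone were not computed.

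POU3F2, which encodes Brn2, had the largest fall below the nearest of the 3 other lists. It had 4.73 kb of scaled covered length in LK2_DNp63, against 18.04 kb in LK2_GFP and 22.32 and 28.68 kb in LK2. Near the start, the widest LK2_DNp63 peak was chr6:99283125-99284290 with 1166 bp. LK2_GFP had 3 adjoining peaks there, chr6:99274048-99278624, chr6:99278706-99282326 and chr6:99282425-99286672, of 4577, 3621 and 4248 bp. The window held 6 lost peaks, the widest at chr6:99272077-99274005. An element about 32 kb upstream, with Sox2 peaks in LK2_DNp63, LK2_GFP and LK2 and a Brn2 peak in LK2, kept a LK2_DNp63 peak of 541 bp at chr6:99250570-99251110, flanked by 2 lost peaks. In the window there were 5 Sox2 peaks in LK2_GFP and 1 in LK2_DNp63. The fall at POU3F2 was called under all 7 alternative settings.

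SOX2, a gene of the same list and a squamous oncogene, had 11.96 kb in LK2_DNp63, against 18.29 kb in LK2_GFP and 21.26 and 25.15 kb in LK2. The peak over the gene stayed wide, at chr3:181427508-181438688 (11181 bp) in LK2_DNp63, against chr3:181427440-181446518 (19079 bp) in LK2_GFP. The difference lay downstream, between about 9 and 17 kb from the start, where LK2_DNp63 had 3 separate peaks of 523, 498 and 1899 bp. The Sox2 list had 1 peak in the SOX2 window in LK2_DNp63 and 7 in LK2_GFP. Over the genome the Sox2 list of LK2_DNp63 is shorter than that of LK2_GFP (4217 against 12034 peaks), so fewer Sox2 peaks at a locus cannot be told apart from a shorter list.

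NRCAM, a neuronal cell adhesion molecule, had 8.02 kb in LK2_DNp63, against 16.28 kb in LK2_GFP and 16.25 and 22.75 kb in LK2. Within the gene, a LK2_GFP peak of 6249 bp at chr7:107963826-107970074 overlapped 2 Sox2 peaks of LK2_GFP and 3 Brn2 peaks of LK2, whereas LK2_DNp63 had a peak of 707 bp there. The NRCAM window held 3 lost and 3 gained peaks. Another peak within the gene, chr7:108054234-108058104, held a p63 peak and spanned 3871 bp in LK2_DNp63, against 2836 bp in LK2_GFP. DLL1, a Notch ligand of neural progenitors, had 2.13 kb in LK2_DNp63, against 4.62 kb in LK2_GFP and 8.81 and 7.61 kb in LK2. The one higher neural gene was MAP2, a microtubule protein of neurons, with 10.4 kb in LK2_DNp63, against 7.81 kb in LK2_GFP and 3.56 and 4.67 kb in LK2. The starts of POU3F3, SOX21 and EBF1, all neural transcription factors, lay within 0.5 kb of a peak in the 3 other lists and not in LK2_DNp63. At SYT1, a synaptic vesicle protein, the LK2_GFP list stood apart rather than that of LK2_DNp63, with 20.06 kb in LK2_DNp63, against 33.72 kb in LK2_GFP and 17.22 and 21.5 kb in LK2. Its difference to LK2_GFP alone, -13.66 kb, was larger than that of POU3F2, -13.3 kb. This gene was added after its values were seen. Neither DLL1 nor MAP2 was called with equal numbers of top peaks per list, with 10 kb of flank or at start sites with 2.5 kb on each side.

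**Figure D3:**
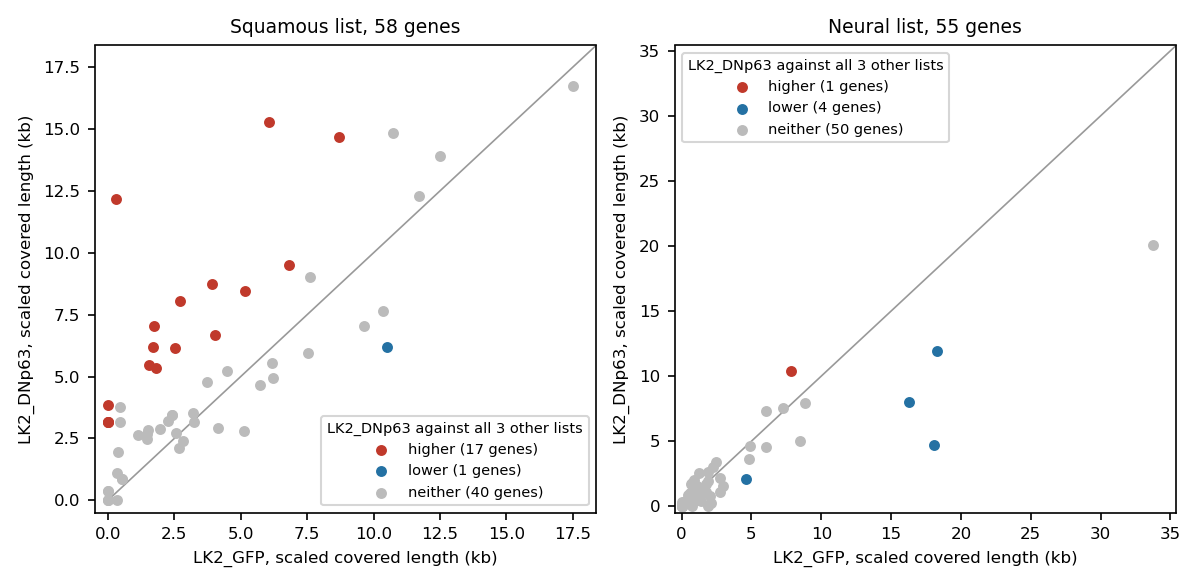
Scaled covered length (kb) of LK2_DNp63 (vertical axis) against LK2_GFP (horizontal axis) for every gene of the squamous list (58 points) and the neural list (55 points), with the line of equal values. Colour gives the call of LK2_DNp63 against all 3 other lists: 17 squamous genes are higher, 4 neural genes are lower, and most genes lie near the line.

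In the list of 16 p53-family targets, a set that p53 and p63 can both bind, 3 genes were higher and 0 were lower, 18.8% and 0%, against 4.81% and 5.69% of bins with a mean of at least 2 kb. The 3 genes are named here after their values were seen. PHLDA3, a repressor of AKT, had 7.17 kb in LK2_DNp63, against 2.3 kb in LK2_GFP and 1.43 and 0.9 kb in LK2. CDKN1A, the cell-cycle inhibitor p21, had 13.44 kb in LK2_DNp63, against 10.76 kb in LK2_GFP and 3.39 and 4.64 kb in LK2, so that LK2_GFP also lay above LK2. MDM2, the ubiquitin ligase of p53, had 5.59 kb in LK2_DNp63, against 2.98 kb in LK2_GFP and 2.06 and 2.62 kb in LK2. All 3 had a p63 peak at the start, taken with 0.5 kb on each side, as did TP53I3 and FDXR, which were not called. None of the 3 was called higher at the start site with 2.5 kb on each side, and MDM2 was also not called with 10 kb of flank. TP53I3 had 5.39 kb in LK2_DNp63, against 5.39 kb in LK2_GFP and 5.61 and 4.47 kb in LK2. FDXR had 1.95 kb in LK2_DNp63, against 2.53 kb in LK2_GFP and 3.04 and 0.94 kb in LK2.

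Of 12 housekeeping genes, 0 were higher and 1, RPL13A, was lower (8.33%). The RPL13A call was not made unscaled, with equal numbers of top peaks per list, with 10 kb of flank or at the start site with 2.5 kb on each side. Of 21 markers of other cell types, SNAI2 was higher (4.76%) and CDH2 and FOXA2 were lower (9.52%). SNAI2, a mesenchymal factor also present in basal cells, had 4.65 kb in LK2_DNp63, against 0.85 kb in LK2_GFP and 0.92 and 0.75 kb in LK2. FOXA2, an endodermal forkhead factor, had 1.81 kb in LK2_DNp63, against 9.68 kb in LK2_GFP and 11.17 and 12.99 kb in LK2. CDH2, the cadherin of neural and mesenchymal cells, had 1.22 kb in LK2_DNp63, against 6.71 kb in LK2_GFP and 5.8 and 6.94 kb in LK2. SNAI2 was called under all 7 alternative settings. FOXA2 and CDH2 were not called at the start site with 2.5 kb on each side, and were called under the other settings. None of the 5 immune and endothelial markers was called in either direction, and none of their starts lay within 0.5 kb of a peak of any of the 4 lists.

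Over the genome, 22% of LK2_DNp63 peaks were gained, the count the definition itself fixes. By the same rule, 4600 LK2_GFP peaks were in that list alone (13.7%), 4557 of LK2 replicate 1 (14.9%) and 716 of LK2 replicate 2 (4.35%). Of the 15006 LK2_GFP peaks that overlapped both LK2 lists, 12.3% were lost. With roles exchanged, peaks absent from 1 list and present in the 3 others numbered 288 for LK2_GFP (2.27%), 813 for LK2 replicate 1 (5.82%) and 6088 for LK2 replicate 2 (31.6%), the shortest list. With the 16470 highest-scoring peaks of each list, 2457 were in LK2_DNp63 alone, against 891 in LK2_GFP, 1265 in LK2 replicate 1 and 2359 in LK2 replicate 2. Missing peaks then numbered 1011 for LK2_DNp63, against 401 for LK2_GFP, 933 for LK2 replicate 1 and 1779 for LK2 replicate 2. With lists of equal length the lost count therefore lay within the range of the 3 other lists, and the gained count was close to that of LK2 replicate 2.

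The number of wide peaks differed more between the lists. Widths also differed over whole lists, with medians of 864 bp in LK2_DNp63, 677 bp in LK2_GFP, and 731 and 1202 bp in LK2. Gained peaks had a median width of 569 bp, and 143 were at least 2 kb wide. Peaks found in LK2_GFP alone had a median of 409 bp and 6 of that width, and those of LK2 replicates 1 and 2 alone had 2 and 6. With lists of equal length there were 258 such wide peaks in LK2_DNp63 alone, against 23 in LK2_GFP, 4 in LK2 replicate 1 and 48 in LK2 replicate 2. Lost peaks had a median of 557 bp with 56 at least 2 kb wide, and kept peaks a median of 1463 bp. Most gained peaks were also low in the authors' score, with a median percentile of 23.5 within their list, against 37.1 for lost and 75.6 for kept peaks. Of the gained peaks, 20.6% lay within 1 kb of a peak in another list, and of the lost peaks 27.4% lay within 1 kb of a LK2_DNp63 peak. Just outside the definitions, 149 LK2_DNp63 peaks and 57 LK2_GFP peaks were excluded by an overlap of under 10% of their width.

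The widest gained peak, chr8:134127335-134137849, spanned 10515 bp inside TG, the thyroglobulin gene. The next were chr2:109579157-109586372 (7216 bp) in EDAR, the ectodysplasin receptor of skin appendages, and chr7:80252887-80259230 (6344 bp) in CD36, a fatty acid receptor. These 3 peaks overlapped no peak of the 5 factor lists. The fourth, chr9:135724427-135730593 (6167 bp) in AK8, held a p63 peak. The fifth, chr12:13089318-13095342 (6025 bp) near GPRC5D, overlapped Sox2 peaks of LK2_DNp63, LK2_GFP and LK2. The peaks near TG, CD36 and GPRC5D had no H3K27ac peak in any of the 12 other lines, whereas that at AK8 had one in 3 lines and that at EDAR in 2. After AK8, the widest gained peaks with p63 were the one in TBCD described with ZNF750, chr9:136519508-136523638 (4131 bp) near DBH, chr10:29258748-29262710 (3963 bp) and chr12:106505725-106509481 (3757 bp) near NUAK1.

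The widest lost peak, chr5:33646276-33651732, spanned 5457 bp in ADAMTS12 and overlapped Sox2 peaks of LK2_GFP and LK2 and a Brn2 peak of LK2. The same held for chr2:91807777-91812375 (4599 bp) and chr1:199134347-199138759 (4413 bp). The lost peak chr6:125321700-125326883 (5184 bp) near RNF217 overlapped none of the 5 factor lists, and chr14:79314935-79319158 (4224 bp) in NRXN3, a neuronal adhesion gene, overlapped Sox2 peaks of LK2_GFP and LK2. Next in width with Sox2 and Brn2 were chr8:129612397-129616537 (4141 bp) and chr7:91181216-91185141 (3926 bp). Genes for these regions and for the bins below were looked up after the values were seen.

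By bins of 100 kb, the largest rise lay at UNC5B and SLC29A3 on chromosome 10, with 18.26 kb in LK2_DNp63, against 3.19 kb in LK2_GFP and 1.35 and 0.0 kb in LK2, and 2 p63 peaks. It was followed by bins at TG and SLA, EDAR, AK8, SP6 and SP2, PRDM1, chr1:219900001-220000000, AMOTL2, CD36 and PPFIBP1, with rises of 10.99 to 14.74 kb over the nearest of the 3 other lists. Of these 10 bins 7 held a p63 peak. SP6, an epithelial zinc-finger factor of skin appendages and teeth, lay in a bin with 20.64 kb in LK2_DNp63, against 7.84 kb in LK2_GFP and 5.87 and 1.44 kb in LK2. The largest fall lay in THSD4 on chromosome 15, with 12.89 kb in LK2_DNp63, against 42.47 kb in LK2_GFP and 40.89 and 56.49 kb in LK2, and 9 Sox2 peaks of LK2_GFP. A second bin of THSD4 and the bins of chr18:37600001-37700000, POU3F2, JAKMIP2, ALDH1A1, PTPRO and EPS8, SLC9A2, chr1:199100001-199200000 and ZNRF3 followed. All 10 of these bins held a Sox2 peak of LK2_GFP, and 9 held a Brn2 peak of LK2.

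The shares of peaks with p63 or with Sox2 of LK2_GFP differed between gained and lost peaks. A p63 peak lay in 721 of 6629 gained peaks, 10.9% (10.1 to 11.7), in 24 of 1853 lost peaks, 1.30%, and in 501 of 12407 kept peaks, 4.04%. With every peak set to 500 bp around its centre, so that equal lengths were searched, the shares were 9.71%, 1.19% and 2.46%. Narrower peaks were thereby widened, and wide peaks, as many kept peaks are, were read at their middle only. Of gained peaks at least 2 kb wide, 33.6% (26.3 to 41.7) held a p63 peak, against 6.08% of kept peaks of that width. From the other side, 1507 of 3159 p63 peaks (47.7%) were acetylated in LK2_DNp63, against 927 (29.3%) in LK2_GFP and 736 and 507 in LK2, and 626 (19.8%) lay in gained peaks. None of the 5 factor lists was met by 79.5% of gained, 54.2% of lost and 67.9% of kept peaks.

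Sox2 peaks of LK2_GFP lay in 6.91% of gained, 43.1% (40.8 to 45.3) of lost and 22.2% of kept peaks, and at 500 bp in 6.61%, 40.5% and 17.2%. For lost peaks at least 2 kb wide the share was 78.6% (66.2 to 87.3), against 28.3% of kept peaks of that width. Sox2 peaks of LK2_DNp63 lay in 6.88% of gained, 10.9% of lost and 9.60% of kept peaks. Of the lost peaks, 602 (32.5%) had a Sox2 peak in LK2_GFP and none in LK2_DNp63, against 12.9% of kept peaks. Among peaks with a Sox2 peak of LK2_GFP, these were 602 of 798 lost and 1605 of 2756 kept peaks. The Sox2 list of LK2_DNp63 is shorter (4217 against 12034 peaks), so a missing Sox2 peak cannot be told apart from a shorter list. Brn2 peaks lay in 1.51% of gained, 10.9% of lost and 12.7% of kept peaks, and at 500 bp in 1.12%, 6.85% and 7.56%. Kept peaks were more often at least 2 kb wide, 29.6% against 3.02% of lost peaks. Within each width class the Brn2 share was not lower in lost than in kept peaks. In peaks of at least 2 kb the Brn2 shares were 33.9% (22.9 to 47.0) of 56 lost and 19.2% of 3668 kept peaks, and in narrower peaks 10.2% of lost and 10.0% of kept peaks.

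**Figure D4:**
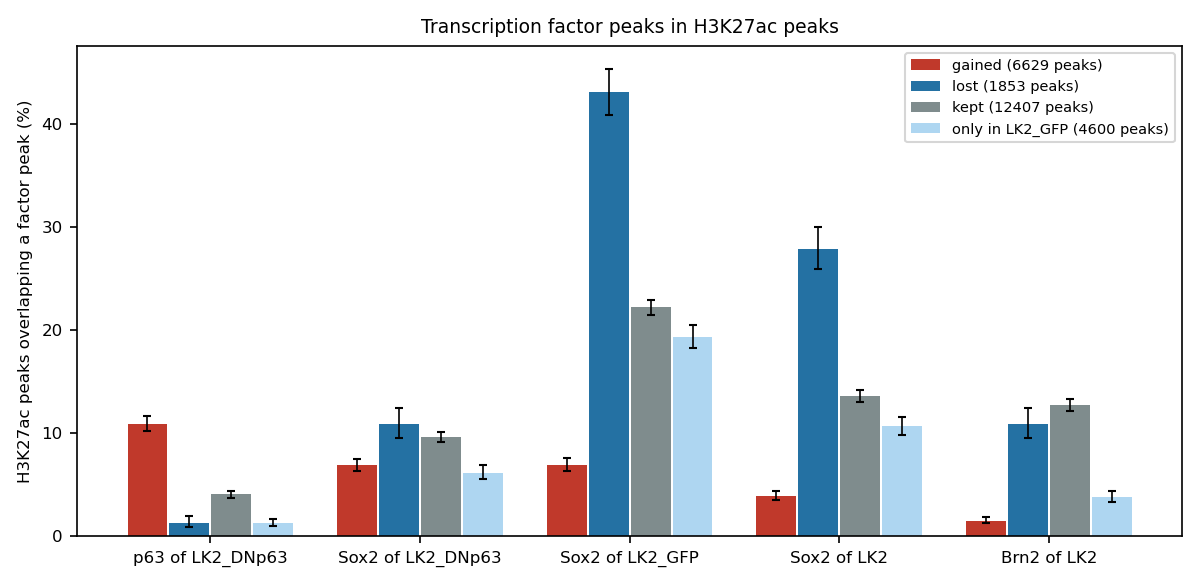
Share (%) of gained, lost and kept H3K27ac peaks, and of peaks found in LK2_GFP alone, that overlap a peak of each factor list, with 95% Wilson intervals as error bars. Gained peaks have the highest p63 share (10.9%), lost peaks have the highest share of Sox2 peaks of LK2_GFP (43.1%), and the Brn2 shares of lost (10.9%) and kept peaks (12.7%), whose widths differ, lie close together.

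The factor lists were also counted over bins. Among bins with a mean of at least 2 kb, a p63 peak lay in 52.4% of 246 higher bins, 19.9% of 291 lower bins and 19.5% of 4575 others. A Sox2 peak of LK2_GFP lay in 65.4%, 91.8% and 52.3% of them, and a Sox2 peak of LK2_DNp63 in 50.8%, 54.6% and 23.2%. A Brn2 peak lay in 31.7% of higher, 56.0% of lower and 31.7% of other bins. By chromosome, the gained share of LK2_DNp63 peaks ranged between 12.5% on chromosome 19 and 26.6% on chromosome 18, and the lost share of LK2_GFP peaks between 1.60% on chromosome 19 and 9.70% on chromosome 21.

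The 12 other unmodified lines, which took no part in the definitions, gave a further reading. Gained peaks with p63 overlapped an H3K27ac peak of KNS62 in 64.4% (721 peaks), of HCC95 in 63.4%, of LC-1/SQSF in 53.1%, of HARA in 51.3% and of HCC2814 in 44.5%. In the 7 other lines the shares ran from 6.80% in NCI-H520 to 17.9% in SQ-1. No line fell between 17.9% and 44.5%. For gained peaks without p63 the shares were closer together, from 12.1% in NCI-H520 to 34.2% in LC-1/SQSF. Kept peaks were covered in 73.7% to 81.4% by those 5 lines and in 62.0% to 83.3% by the 7 others, with no such gap.

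Lost peaks overlapped H3K27ac peaks mainly in NCI-H520, another lung squamous carcinoma line. Its 2 libraries covered 65.0% (62.8 to 67.2) and 63.1% (60.9 to 65.3) of them. The other 11 lines covered 11.3% in HCC2814 to 24.2% in LC-1/SQSF. Kept peaks were covered by NCI-H520 in 83.3% and by the other lines in 62.0% to 81.4%. Peaks found in LK2_GFP alone were covered by the NCI-H520 libraries in 25.2% and 28.8% and by LC-1/SQSF in 28.6%. Those found in LK2 replicate 1 alone were covered by NCI-H520 in 30.4% and elsewhere in at most 21.8% (LC-1/SQSF). A smaller excess in NCI-H520 was thus also seen for peaks of LK2 replicate 1 alone. Peaks of either list alone had lower scores than lost peaks, with median percentiles of 18.7 against 37.1, so the sets are not matched. Lost peaks with a Sox2 peak of LK2_GFP were covered in 73.4% and 63.9% by the NCI-H520 libraries, and those without in 58.7% and 62.6%. Of the gained peaks, 34.8% met no H3K27ac peak in any of the 12 lines, against 16.1% of lost and 2.68% of kept peaks. For peaks found in LK2_GFP alone the share was 35.3%, so it was not particular to gained peaks.

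**Figure D5:**
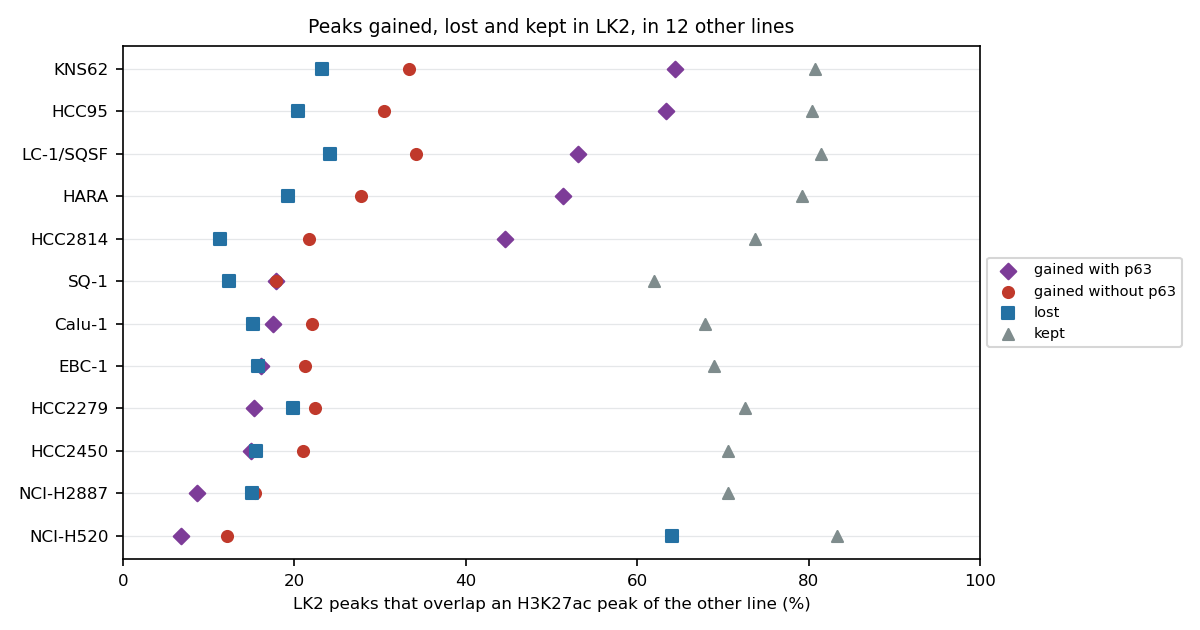
Share (%) of LK2 peaks that overlap an H3K27ac peak of each of 12 other lines, for gained peaks with and without p63, lost peaks and kept peaks. Gained peaks with p63 reach 44.5% to 64.4% in 5 lines and at most 17.9% in the 7 others, and lost peaks reach 64.1% in NCI-H520 and at most 24.2% elsewhere.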

How the data were processed

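The deposited files are peak lists, 1 per sample, with chromosome, start, end, name and a score per peak, the authors' own value, which here ranks peaks of the same list. The submitters' processing notes name Bowtie2 and hg19 (GRCh37). Peak names begin with MACS, and how it was run is not given in the sources used here. Per the labels' protocols, formaldehyde and sonication were used throughout, and Brn2 chromatin also had disuccinimidyl glutarate and micrococcal nuclease. The lists hold no read counts, so depth is unknown, and peak number and width can move with it. Labels do not say that the LK2 libraries came from separate cultures.

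Only peaks of the autosomes and X were kept, which left out 113 of LK2_DNp63, 92 of LK2_GFP, and 66 and 27 of LK2. The 4 lists held 36.6 Mb in LK2_DNp63, 33.8 Mb in LK2_GFP, and 29.1 and 24.6 Mb in LK2, and covered lengths were multiplied by 0.848, 0.918, 1.07 and 1.26 in that order. Coordinates are 1-based. The planned background of all genes was replaced by bins of 100 kb that hold a peak, since no hg19 annotation was used here. Gene positions on hg19 were entered from general knowledge and compared with RefSeq GRCh38.p14 for chromosome, and for length (within 3 kb) or shift relative to a neighbour (within 5 kb). Of 165 list genes 162 passed; EGFR, AEN and PECAM1 were left out. Distances from gene starts are therefore approximate. Motifs were not searched in peaks for the same reason.

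Members and lists were chosen with earlier results of these data known. Named were called squamous and neural genes (up to 15 per direction, which leaves DSG3 and JAG2 as additions; 1 called gene is not reported here), the 10 bins with the largest difference each way, and the 5 widest gained and lost peaks, also with p63 or with Sox2 and Brn2. The comparison was checked on simulated peak lists. Python 3.11.15, numpy 2.4.6, pandas 2.3.3, scipy 1.17.1 and matplotlib 3.10.9 were used.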

Additional observations from a re-analysis of the deposited data

How the results depend on the processing

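No paired analysis was possible because each arm has 1 library and no result comes from a test. With the same number of top peaks per list there were 2457 gained and 1011 lost peaks, the p63 share of gained peaks was 14.7%, the Sox2 share of lost peaks 50.3% and their Brn2 share 17.7%. With the higher-scoring 50% of each list these were 2089, 742, 15.3%, 58.8% and 21.7%. With peaks under 1 kb apart joined, lost peaks numbered 985, and the shares were 12.6%, 52.0% and 15.2%. An overlap of 50% of the shorter peak gave a p63 share of 10.1%. Leaving out an LK2 replicate in turn gave 6772 to 7598 gained and 2444 to 3660 lost peaks, p63 shares of 9.90% to 10.7%, Sox2 shares of 33.1% to 40.1%, Brn2 shares of 7.65% to 9.90%, 17 to 18 higher squamous genes and 4 to 5 lower neural genes. Higher squamous genes numbered 9 with 10 kb of flank, 1 (MIR205HG) at start sites with 2.5 kb on each side, 11 with equal numbers of top peaks, 22 with no scaling and 16 without TP63, the last chosen after seeing the data. Lower neural genes numbered 1 (POU3F2) at start sites and 11 with a minimum difference of 1 kb. The causes were not tested. MIR205HG, POU3F2 and, from the other cell type list, SNAI2 kept their calls in all 7 planned settings.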
